A study of Homo sapiens with 18 samples.

Results

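Caspases are cysteine proteases that cut other proteins after aspartate residues. The apoptotic initiators are switched on in protein complexes, CASP8 and CASP10 at death receptors and CASP9 at the apoptosome that forms when mitochondria release cytochrome c. CFLAR, also called c-FLIP, resembles CASP8 but lacks a working protease, and it competes for the same receptor complexes. CASP1 and CASP4 act in inflammasomes, CASP2 in the PIDDosome, and CASP6 is mainly an executioner that cuts structural proteins such as lamins. Their activity is set largely by cleavage of the protein, which an mRNA array does not measure. The transcripts of these 8 genes were followed in A549 cells, an epithelial line from a human lung adenocarcinoma, after treatment with colloidal silica.

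The members were all non-control probes whose gene name in the scanner files was CASP1, CASP2, CASP4, CASP6, CASP8, CASP9, CASP10 or CFLAR, which gave 8 of the 30484 gene names and 17 of the 41000 distinct probes. CASP2, CASP8 and CASP10 had 3 probes each, CASP4, CASP9 and CFLAR had 2, and CASP1 and CASP6 had 1. All 17 probes were among the 28665 that passed the filter on missing values.

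The series held 18 one-colour arrays of A549 RNA in 6 groups of 3, named A, B and C. Treated cells received Ludox silica nanoparticles, either SM30 (9 nm) or AS30 (18 nm), for 2 h in medium without serum at 0.02 mg/mL and then recovered without particles. SM30 cells were collected after 3 h of recovery, AS30 cells after 3 h or 22 h, and each set had its own 3 untreated controls. By the study's methods the controls were handled in the same way but without particles, and recovery was in medium with serum. All groups came from the same cancer line, and the study's methods call A, B and C biological replicates, though the labels do not say how the cultures were kept apart. The arrays lay on 5 slides, the SM30 and AS30 sets on different ones. SM30 A shared a slide with its 3 controls, the 3 AS30 3 h arrays were all on another slide than their controls, and the 3 AS30 22 h arrays shared theirs with control C alone.

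Between 51.9% and 72.4% of spots were well above background on an array, and no probe spot was saturated. The AS30 22 h controls were dimmest, at 51.9% to 58.4%, against 56.9% to 67% in the treated cells of that set. In the AS30 3 h set the shares did not overlap, at 52.4% to 61.9% in controls and 62.5% to 67.1% in treated cells. The epithelial markers KRT8, KRT18, KRT19, EPCAM and CDH1 were well above background on 18 of 18 arrays. Of the alveolar type II markers, SFTPC and ABCA3 were on 18 and NKX2-1 on 17, whereas SFTPA2 was on 0 and SFTPB on 1. The leukocyte marker PTPRC and the endothelial marker PECAM1 were on 0, although the probes for CD3E, CD14 and the fibroblast marker COL1A1 were on 18.

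CFLAR, CASP10 and CASP8 are neighbours on chromosome 2, where their probes lay in that order within 151 kb of hg18, the build of the array file. CASP4 and CASP1 are neighbours on chromosome 11. The promoter windows that RefSeq gives for GRCh38.p14, from 250 bases before a start site to 50 after it, covered 6 of the 8 genes in 13 windows. A window each of CFLAR, CASP8 and CASP2 is printed 5′ to 3′ on the strand of the gene, as 1 example for each of 3 motifs, with only the motif named for it in capitals. The CFLAR window, chr2:201118466-201118765 on the plus strand, has the NF-kB consensus in capitals, starting 97 bases before the start site. The CASP8 window, chr2:201233213-201233512 on the plus strand, has the core of the interferon-stimulated response element in capitals, across the start site. The CASP2 window, chr7:143288101-143288400 on the plus strand, has 4 matches of the GC box (GGGCGG, here on the other strand as CCGCCC) in capitals.
CFLAR: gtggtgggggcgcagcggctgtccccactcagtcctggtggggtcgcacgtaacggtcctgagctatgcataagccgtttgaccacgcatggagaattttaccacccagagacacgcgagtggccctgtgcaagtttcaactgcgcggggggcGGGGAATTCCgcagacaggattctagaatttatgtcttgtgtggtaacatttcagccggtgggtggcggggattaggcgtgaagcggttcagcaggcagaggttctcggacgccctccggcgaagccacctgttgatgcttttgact
CASP8: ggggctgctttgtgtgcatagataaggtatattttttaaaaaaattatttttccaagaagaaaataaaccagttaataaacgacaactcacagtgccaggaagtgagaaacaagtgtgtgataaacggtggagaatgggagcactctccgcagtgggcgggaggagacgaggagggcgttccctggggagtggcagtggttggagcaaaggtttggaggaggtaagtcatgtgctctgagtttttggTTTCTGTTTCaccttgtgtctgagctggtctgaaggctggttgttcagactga
CASP2: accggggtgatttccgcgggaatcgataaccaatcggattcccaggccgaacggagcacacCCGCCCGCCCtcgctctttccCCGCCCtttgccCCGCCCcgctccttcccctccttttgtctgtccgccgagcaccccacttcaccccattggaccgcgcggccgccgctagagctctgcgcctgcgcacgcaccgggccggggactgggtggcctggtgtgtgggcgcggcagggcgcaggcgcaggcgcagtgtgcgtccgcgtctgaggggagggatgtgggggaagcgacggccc
Both strands were searched in each of the 35116 windows of the table. The NF-kB consensus was in 11.3% of them and in 2 of the 13 member windows, of CFLAR and of CASP2. The response element core was in 3.57% of all windows and in 1 member window. The GC box was in 45% of all windows and in 8 member windows, with at least 1 in each of the 6 genes. The STAT core was in 7.66% of all windows and in 1 member window. In the printed CFLAR window a GC box overlaps the NF-kB match, and the printed CASP8 window also holds a GC box and the STAT core, all left in lower case. A match is only a run of letters, and no binding was measured here.

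**Figure D1:**
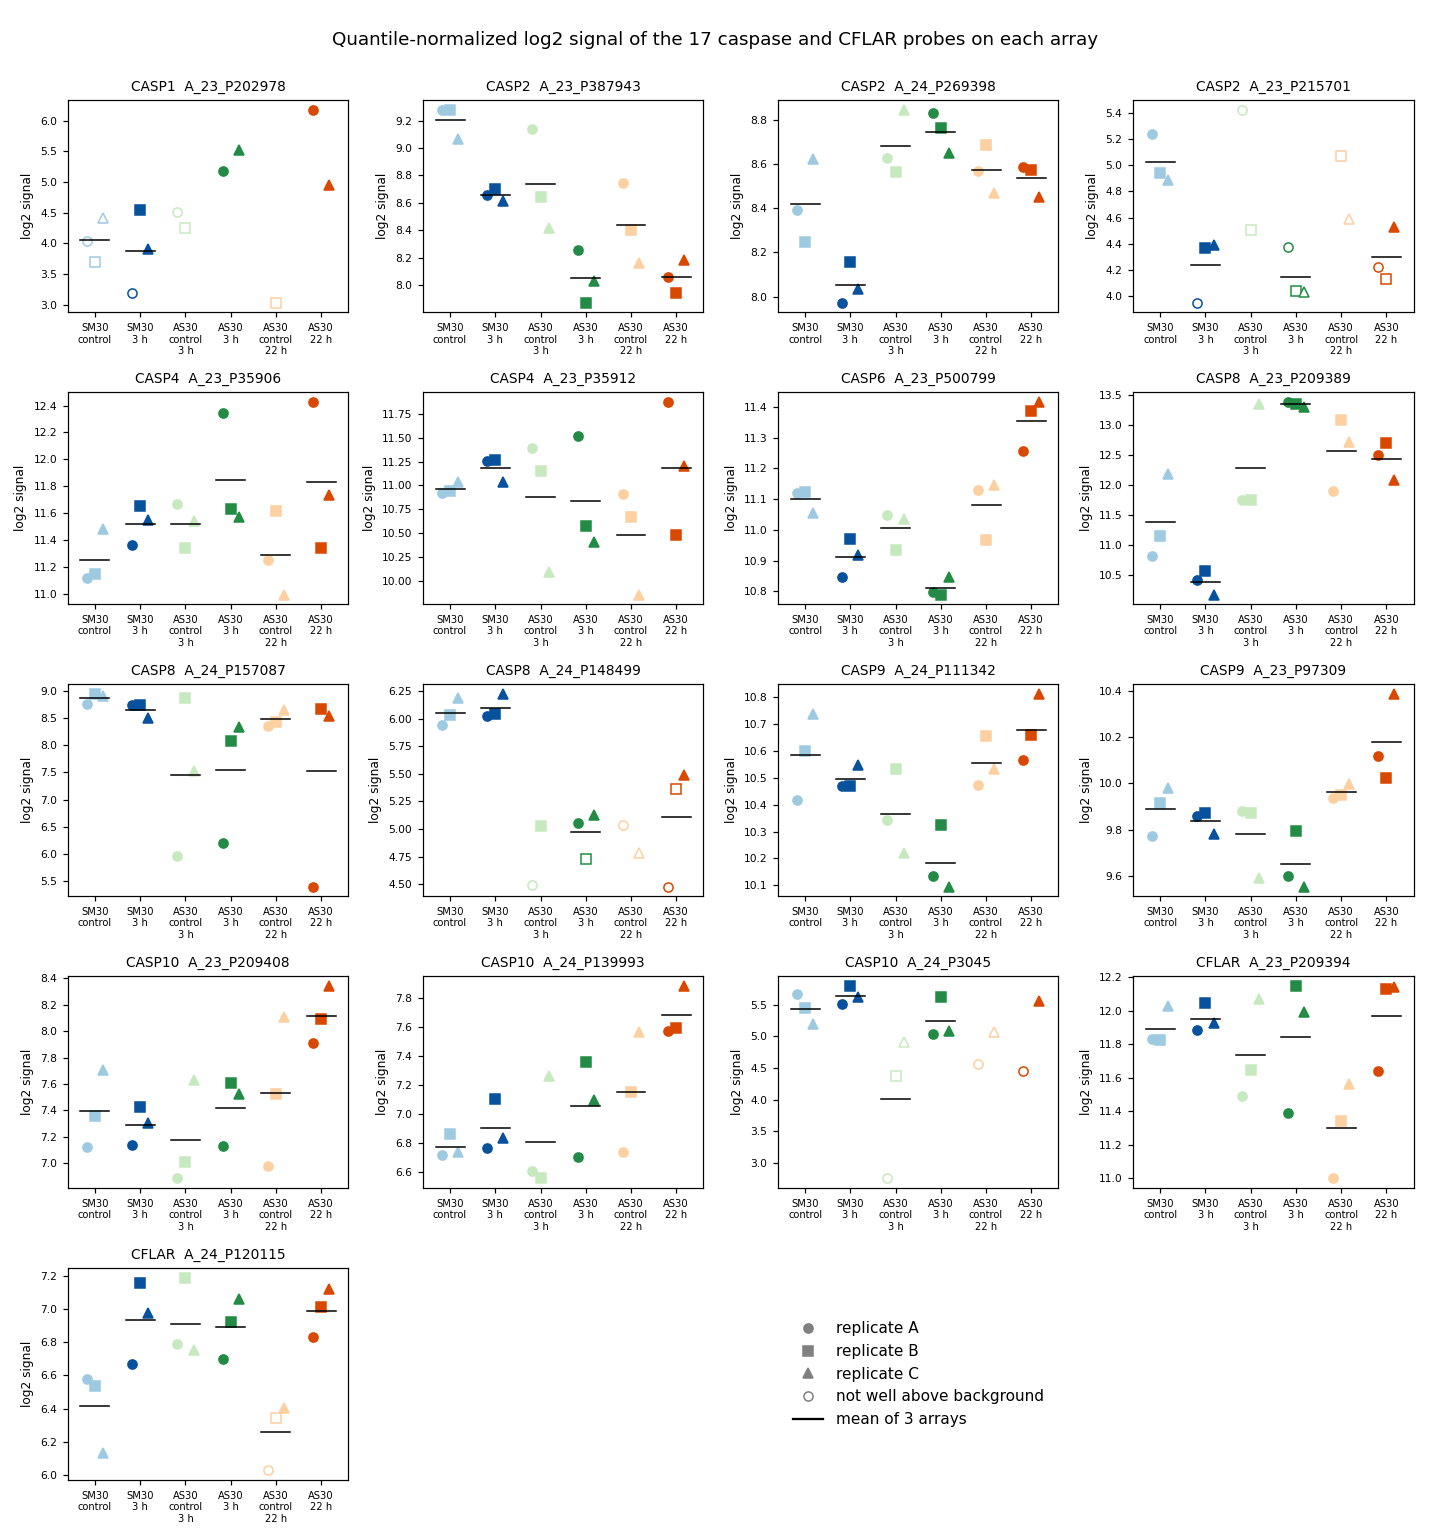
Quantile-normalized log2 signal (vertical axis, a separate scale in each panel) of the 17 probes on each of the 18 arrays by group, with replicate letters as symbols, spots not well above background as open symbols and the mean of a group as a line where all 3 arrays gave a value. Both CFLAR probes lie higher in the 3 AS30 22 h arrays than in their 3 controls, and CASP8 A_23_P209389 ranges from 10.17 to 13.38.

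Levels below are quantile-normalized log2 signals, and changes are log2 ratios of a treated array to the control array of the same letter, averaged over the 3 pairs. A probe was called when its adjusted p, from limma with Benjamini-Hochberg adjustment over all probes tested, was below 0.05. In AS30 cells at 22 h, 1 of the 16 member probes tested was called, against 3.58% of all 28155 probes. That probe reported CFLAR, which rose. In SM30 cells 0 of 17 were called by limma, against 7.49% of all 28664 probes. In AS30 cells at 3 h 0 of 17 were called, against 2.52% of all 28596 probes. An unadjusted p below 0.05 was found for 5 of 17 probes in SM30 cells (25.1% of all probes), 4 of 17 in AS30 cells at 3 h (24.4%) and 7 of 16 at 22 h (22.9%). The median change of the member probes was -0.09 in SM30 cells, 0.09 in AS30 cells at 3 h and 0.21 at 22 h, while that of all probes tested was -0.05, 0.01 and -0.0047.

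A cruder description counts the probes whose 3 treated arrays lay entirely above or below the 3 controls. In SM30 cells there were 8 such probes of 17, with 2 higher and 6 lower, where 43% of all probes did so. In AS30 cells at 3 h there were 3 of 14 (23.8% of all probes), and at 22 h 5 of 13 (23.9%), all of them higher in the treated cells. In SM30 cells and in AS30 cells at 3 h the members' shares were near those of all probes.

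**Figure D2:**
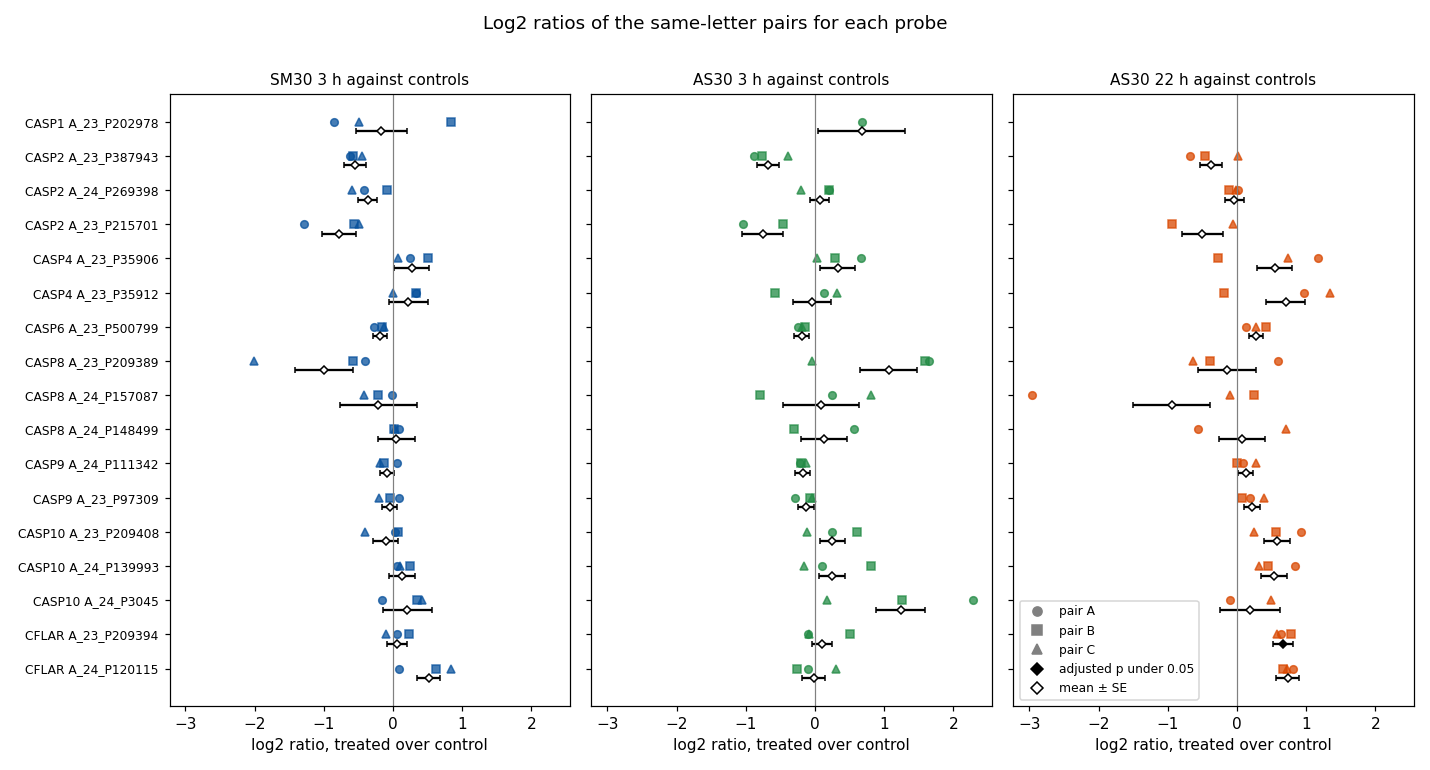
Log2 ratios of treated over control (horizontal axis) of each same-letter pair for the 17 probes, with the mean and its standard error as a diamond; the filled diamond marks the call. CFLAR A_23_P209394 at AS30 22 h has pairs at 0.64, 0.79 and 0.58, whereas the pairs of CASP8 A_23_P209389 in SM30 cells run from -2.003 to -0.41.

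CFLAR has 2 probes, which lie 24407 bases apart on the genome and are listed for partly different transcripts. On hg18 A_23_P209394 lies at 201708976 to 201709035 and A_24_P120115 at 201733443 to 201733502 of chromosome 2, both on the plus strand. A_23_P209394 is the brighter, well above background on 18 of 18 arrays. In AS30 cells at 22 h it read 11.64, 12.13 and 12.14 in A, B and C. In the controls of that set it read 10.999, 11.34 and 11.56. Every treated array was above every control array, although AS30 A lay only just above control C. The change was 0.67 ± 0.14 (SE, n = 3), or 1.59-fold, with a 95% interval from 0.34 to 0.997 and an adjusted p of 0.0446 by limma. The second probe, A_24_P120115, read 6.83, 7.01 and 7.12 in treated cells against 6.03, 6.34 and 6.40 in controls. Its change was 0.73 ± 0.17 (SE, n = 3), with an adjusted p of 0.0516, and 1 of the 3 controls was well above background against 3 of 3 treated arrays. The groups did not overlap with this probe either, and all 6 pairs of the 2 probes were above 0.

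The CFLAR call lay close to the threshold. Against control C, the control that shared their slide, the AS30 22 h arrays were higher by 0.41 with A_23_P209394 and by 0.59 with A_24_P120115. With slide as a fixed block in a fit of the 18 arrays the changes were those same values, and the adjusted p was 0.821 and 0.546. Over 20 alternatives with a test the change of A_23_P209394 stayed above 0, from 0.41 to 0.71, and it was called in 8 of them. That of A_24_P120115 ran from 0.23 to 0.78, with a call in 6. The part of the slides and of the lower brightness of the controls in this change was not tested.

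**Figure D3:**
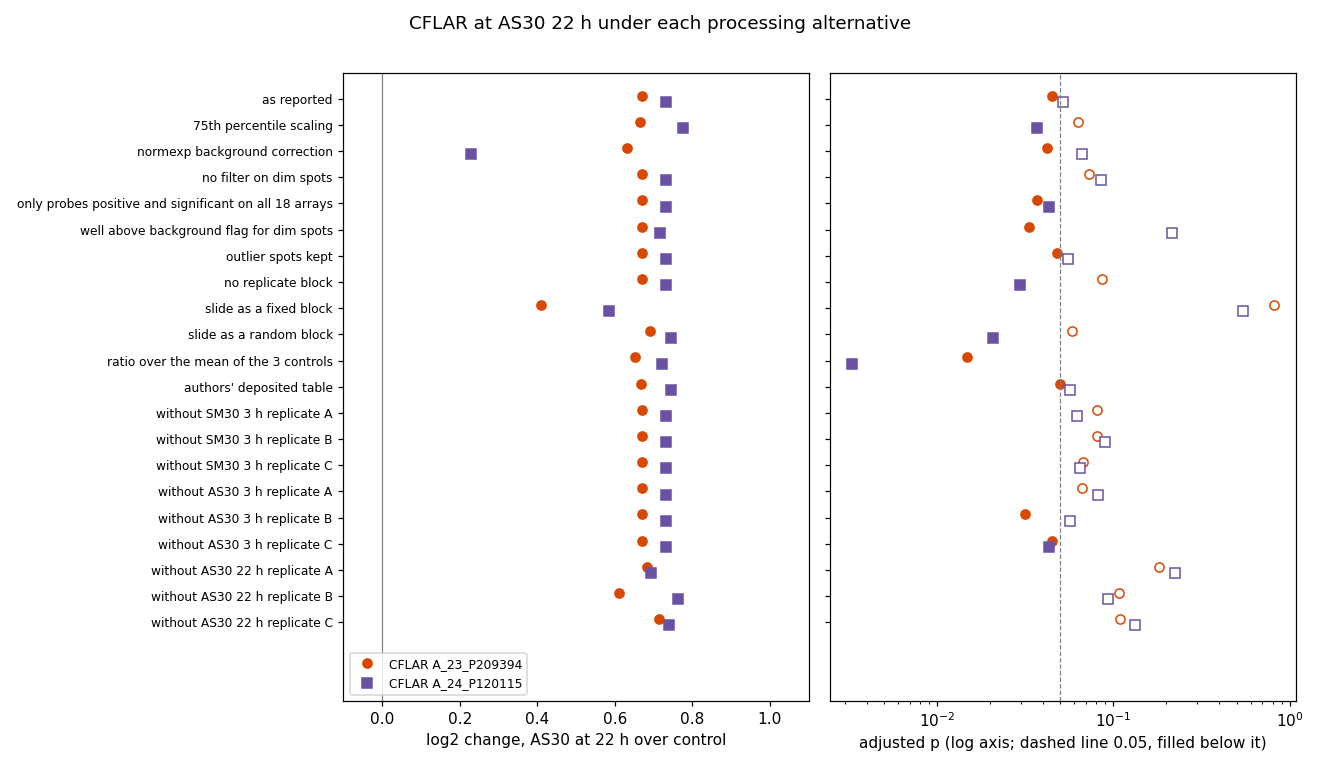
Log2 change (left) and adjusted p (right, log axis, dashed line at 0.05) of the 2 CFLAR probes for AS30 at 22 h as reported and under 20 processing alternatives, with filled symbols on the right where the adjusted p was below 0.05. All changes are above 0, whereas the adjusted p of A_23_P209394 runs from 0.0147 to 0.821.

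At 3 h CFLAR differed little with the bright probe. In SM30 cells it read 11.88, 12.05 and 11.93 against 11.83, 11.82 and 12.03, a change of 0.06 with an adjusted p of 0.837. In AS30 cells it read 11.39, 12.15 and 11.99 against 11.49, 11.65 and 12.07, a change of 0.11 with an adjusted p of 0.676. The treated and control ranges overlapped in both sets. The dim probe differed from it in SM30 cells, where it read 6.67, 7.16 and 6.98 against 6.58, 6.53 and 6.13, a change of 0.52 with an adjusted p of 0.0968. The response at 22 h exceeded that at 3 h by 0.56 with the bright probe (95% interval from 0.10 to 1.03), with an adjusted p of 0.229, so a difference between the times was not called. Among the 6 group means of the bright probe, from 11.97 in AS30 22 h cells down to 11.30 in their controls, no neighbours in the order were apart.

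The 3 probes whose levels followed CFLAR A_23_P209394 most closely over the 18 arrays, among 23030 probes measured on all of them, reported RBP7 (Pearson r 0.92), FAM133A (0.90) and RHOQ (0.90). RBP7 encodes a retinol-binding protein and RHOQ a small GTPase. These values describe arrays that share slides and groups, and no test was made.

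CASP8, the initiator at death receptors, varied widely between arrays. Its main probe, A_23_P209389, was printed at 10 spots on every array, with 16 of the 180 spots flagged as outliers and left out. The SD of its spots within an array, in log2 before normalization, had a median of 0.11. Across arrays the same probe ranged from 11.06 to 13.20 before normalization and from 10.17 to 13.38 after it. In SM30 cells it read 10.41, 10.57 and 10.17, below the controls at 10.81, 11.15 and 12.17. In AS30 cells at 3 h it read 13.38, 13.35 and 13.30 against 11.74, 11.75 and 13.35 in controls. At 22 h it read 12.49, 12.70 and 12.08 against 11.89, 13.09 and 12.71. The treated and control ranges thus overlapped in both AS30 sets and were apart in SM30 cells, where control C stood above its fellows. Before normalization the SM30 controls A, B and C lay closer together, at 12.18, 12.02 and 12.50. The SM30 arrays then read 11.16, 11.14 and 11.06.

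The corresponding changes were -0.999 ± 0.42 in SM30 cells (adjusted p 0.18), 1.06 ± 0.42 in AS30 cells at 3 h (adjusted p 0.169) and -0.14 ± 0.42 at 22 h (SE, n = 3 each). The SM30 response minus the AS30 response at 3 h was -2.06, with a 95% interval from -3.41 to -0.71 and an adjusted p of 0.239. The difference between the particles was thus not called for CASP8, and its interval does not show that they acted alike. The 22 h control on the slide of the AS30 3 h arrays also read 13.09, and with slide as a fixed block the AS30 3 h change became -0.13. In that fit the offset between the slides of treated and control arrays rests only on 22 h controls A and B. These are single arrays of another recovery time, at 11.89 and 13.09, so the fit cannot separate slide from treatment. Without pair C it was 1.62 with an adjusted p of 0.0483. The part of the slides and of the lower brightness of the 3 h controls in these levels was not tested.

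**Figure D4:**
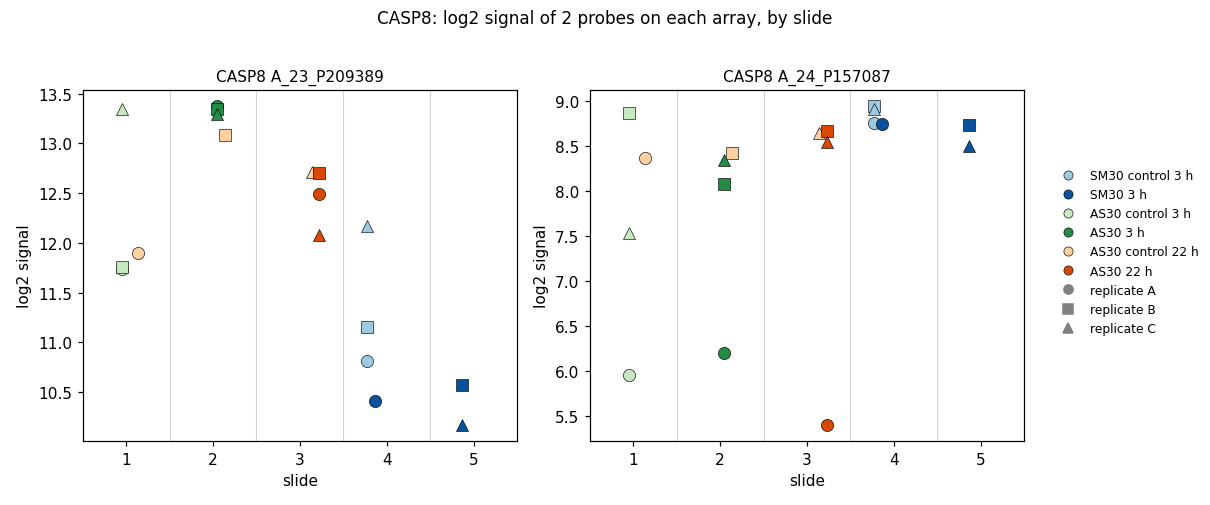
Log2 signal (vertical axis) of CASP8 A_23_P209389 (left) and A_24_P157087 (right) on the 18 arrays by slide, with groups as colours and replicate letters as symbols. On the left the 4 arrays of slide 2 sit between 13.09 and 13.38; on the right 3 of the A arrays sit at 6.19 or lower.

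A second CASP8 probe, A_24_P157087, matches the same transcripts 294 bases downstream, and it did not follow the first. It read 8.50 to 8.74 in SM30 cells and 8.75 to 8.95 in their controls. In AS30 A it read 6.19 at 3 h and 5.40 at 22 h, and in the 3 h control A 5.95, whereas the other AS30 and AS30 control arrays lay between 7.53 and 8.86. With that probe the changes were -0.21, 0.09 and -0.94, with adjusted p from 0.349 to 0.94. The ratios of the 2 probes had the same sign in 5 of 9 pairs and differed by up to 3.57. The other probe, A_24_P148499, listed for other transcripts, was well above background on 10 of 18 arrays, 6 of them in the SM30 set, where its change was 0.04.

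The ratios of neighbouring probes were also compared for other members, as a description with no test. The 2 CASP9 probes, 57 bases apart, gave ratios of the same sign in 9 of 9 pairs, with a largest gap of 0.13. The nearest 2 CASP10 probes, 77 bases apart, did so in 8 of 9 pairs, and the 2 CASP4 probes in 8 of 9. The brightest 2 CASP2 probes, 397 bases apart, did so in 5 of 9.

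CASP10, the close relative of CASP8 at death receptors, read higher in AS30 cells at 22 h with both bright probes, without a call. Its brightest probe, A_23_P209408, read 7.91, 8.09 and 8.34 against 6.98, 7.52 and 8.10 in controls. The change was 0.58 ± 0.18 (SE, n = 3), with an adjusted p of 0.111. A_24_P139993 read 7.57, 7.59 and 7.89 against 6.73, 7.15 and 7.57, a change of 0.53 ± 0.19 with an adjusted p of 0.14. All 6 pairs were above 0, with the A pair highest for each probe, but neither probe was called. Against control C on the same slide the differences were 0.01 and 0.12. At 3 h the changes of these probes lay between -0.10 and 0.25. The third probe, A_24_P3045, lies 26588 bases upstream and is listed for other transcripts. It was well above background on 3 of 3 AS30 3 h arrays and 0 of 3 controls. It read 5.04, 5.62 and 5.09 against 2.75, 4.37 and 4.91, with an adjusted p of 0.102, and gives no fold since the lowest signals called well above background on those control arrays ran from 4.94 to 6.35.

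CASP6, the executioner, and CASP9, the apoptosome initiator, had standard errors of 0.10 to 0.12 and small changes. CASP6 read 10.85, 10.97 and 10.92 in SM30 cells against 11.12, 11.12 and 11.06 in controls. It read 10.80, 10.79 and 10.85 in AS30 cells at 3 h against 11.05, 10.93 and 11.04. At 22 h the order was turned, with 11.26, 11.39 and 11.42 against 11.13, 10.97 and 11.14. The treated and control arrays did not overlap in any of the 3 sets, below the controls at 3 h and above them at 22 h. The changes were -0.19, -0.19 and 0.27, each ± 0.10 (SE, n = 3), with adjusted p of 0.297, 0.279 and 0.166, so none was called. The AS30 response at 22 h exceeded that at 3 h by 0.47, with a 95% interval from 0.13 to 0.80 and an adjusted p of 0.197.

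CASP9 had the same signs. A_24_P111342 changed by -0.18 in AS30 cells at 3 h and by 0.13 at 22 h, and A_23_P97309 by -0.13 and 0.22, with adjusted p from 0.302 to 0.522. Treated cells at 22 h read 10.57, 10.66 and 10.81 with the first probe, and controls 10.47, 10.65 and 10.53, so the groups overlapped. With the second probe they read 10.12, 10.02 and 10.39 against 9.93, 9.95 and 10.00, which did not. In SM30 cells the changes were -0.09 and -0.05.

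CASP2, the caspase of the PIDDosome, read lower in treated cells with its brightest probe, although no change was called. In AS30 cells a probe almost as bright changed little. With A_23_P387943, the brightest probe, SM30 cells read 8.66, 8.70 and 8.61 against 9.28, 9.28 and 9.06 in controls. AS30 cells at 3 h read 8.26, 7.87 and 8.03 against 9.14, 8.64 and 8.42. Treated and control arrays did not overlap in either set. At 22 h they read 8.06, 7.94 and 8.19 against 8.75, 8.40 and 8.16, and control C fell within the treated range. The changes were -0.55 ± 0.16 in SM30 cells (adjusted p 0.0712), -0.68 ± 0.16 in AS30 cells at 3 h (adjusted p 0.0591) and -0.37 ± 0.16 at 22 h (adjusted p 0.199; SE, n = 3 each). None was called, although 8 of the 9 pairs were below 0.

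On the slide of the SM30 controls, SM30 A alone was lower than their mean by a log2 difference of -0.55 with this probe. Against control C on their own slide, the AS30 22 h arrays differed by -0.10. With slide as a fixed block the AS30 3 h change was -0.34, where the offset between slides rests on 22 h controls A and B. The part of the slides in these changes was not tested. For CASP2 A_23_P387943 with the well-above-background flag in place of the software's test of significance, the adjusted p was 0.0465 in SM30 cells and 0.0377 in AS30 cells at 3 h. With normexp background correction the changes were -0.32 and -0.36. The dim probe A_23_P215701 was well above background on 5 of 6 arrays of the SM30 set, where its change was -0.78 as reported and -0.09 with normexp, and on 1 of 12 arrays of the AS30 sets, for which no change is given. The third probe, A_24_P269398, was almost as bright as A_23_P387943, with a mean log2 signal of 8.50 against 8.53. It is listed for the same transcripts and was well above background on 18 of 18 arrays. It changed by -0.37 in SM30 cells, where groups were also apart, but by 0.07 and -0.04 in AS30 cells. Its SM30 response minus its AS30 response was -0.43, with an adjusted p of 0.34.

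CASP4, which binds bacterial lipopolysaccharide inside cells, was bright with both probes. At AS30 22 h A_23_P35906 read 12.43, 11.34 and 11.74 against 11.26, 11.62 and 10.9986 in controls. A_23_P35912 read 11.87, 10.49 and 11.20 against 10.91, 10.67 and 9.86. Pairs A and C were above 0 and pair B below it with both probes, and the groups overlapped. The changes were 0.54 ± 0.25 (adjusted p 0.243) and 0.71 ± 0.28 (adjusted p 0.182). Without pair B they were 0.96 and 1.15, with adjusted p of 0.0448 and 0.0394. At 3 h the changes of both probes lay between -0.04 and 0.33.

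CASP1, which cuts the precursor of interleukin-1 beta, was near the limit of the array. Its only probe was well above background on 6 of 18 arrays, all of them treated. It gave 1 usable pair in AS30 cells at 3 h and 0 at 22 h, where it was not tested. At 22 h it read 6.17 in AS30 A and 4.95 in AS30 C, had no usable spot in AS30 B, and read 3.03 in control B, the only control with a usable spot. The lowest signals well above background on those control arrays ran from 5.43 to 6.47, so no fold is given. In SM30 cells the change was -0.17, with an adjusted p of 0.816.

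The 2 particles were compared at the same dose and recovery time, in sets that shared no slide or scan day, so particle and batch cannot be told apart. The SM30 response minus the AS30 response at 3 h was called for 0 of 17 member probes by limma (0.014% of all probes), and 3 of 17 had an unadjusted p below 0.05 (14.6% of all). For the probe that stood for each gene, that difference was 0.13 for CASP2 (95% interval from -0.37 to 0.64), 0.01 for CASP6 (-0.33 to 0.34), 0.09 for CASP9 (-0.25 to 0.43) and -0.05 for CFLAR (-0.51 to 0.41). It was less closely bounded for CASP4, at -0.06 (-0.87 to 0.76), and CASP10, at -0.35 (-0.94 to 0.23), and it was -2.06 for CASP8, as given above. CASP1 had 1 usable AS30 pair and 0 of 6 controls well above background, so no difference is given. The 3 probes with an unadjusted p below 0.05 were CASP8 A_23_P209389, CASP2 A_24_P269398, at -0.43, and CFLAR A_24_P120115, at 0.54 (0.00095 to 1.07), against the -0.05 of the bright CFLAR probe. The AS30 response at 22 h minus that at 3 h was called for 0 of 16 (0.0285% of all probes), with 3 of 16 below an unadjusted 0.05 (16.9% of all). The 3 were CASP6 and both CFLAR probes, all higher at 22 h.

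The other genes of the pathway were counted in 6 lists of 55 genes, each by its brightest probe, of which 45 passed the filter. In SM30 cells 5 of 45 rose and 0 fell, against 7.49% of all probes called. At AS30 3 h 0 of 45 were called by limma, against 2.52% of all probes, with 6 at an unadjusted p below 0.05, against 24.4% of all. At 22 h 5 of 44 rose and 0 fell, against 3.58% of all probes called. These counts are small, and no test set the lists against other genes. Their median changes were 0.09, 0.04 and 0.14. Over all probes more calls were higher than lower as well. In SM30 cells 1248 were higher and 898 lower, and at AS30 22 h 716 were higher and 292 lower.

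Among death receptors, ligands and adaptors 4 of 11 rose in SM30 cells, where 7.49% of all probes were called. TNFRSF10A and TNFRSF10B, the receptors for TRAIL that recruit CASP8, changed by 0.78 ± 0.14 (adjusted p 0.0184) and 0.64 ± 0.12 (adjusted p 0.0186; SE, n = 3 each). In AS30 cells at 3 h they changed by 0.49 and 0.31, with adjusted p of 0.1 and 0.159. TNF, a cytokine, was called with a probe well above background on 3 of 3 SM30 arrays but 1 of 3 controls (adjusted p 0.00507). Its change was 1.81 as reported and 0.26 with normexp, and with no filter on dim spots the adjusted p was 0.0842. The other TNF probe changed by 0.06, with an adjusted p of 0.865. The fourth, CYLD, a deubiquitinase, changed by 0.53 with an adjusted p of 0.0241; it lies outside the naming rule and is given to complete the count. TRADD, an adaptor of the TNF receptor, rose by 0.54 ± 0.10 in AS30 cells at 22 h, with an adjusted p of 0.0346, the only 1 of 10 in its list. FADD, which joins CASP8 to the receptors, changed by -0.08, -0.31 and 0.06, with adjusted p of 0.711, 0.145 and 0.792; it is outside the naming rule as well.

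Of the inhibitors of apoptosis, XIAP, which blocks CASP9 and the executioners directly, rose by 1.14 ± 0.22 in SM30 cells (adjusted p 0.0214), the only 1 of 7. In AS30 cells it changed by 0.24 and 0.27. Of the mitochondrial and PIDDosome genes, CRADD, the adaptor that ties CASP2 to the PIDDosome, was the only 1 of 9 called, at AS30 22 h, by 0.55 ± 0.12 (adjusted p 0.0456). Of the inflammasome genes 2 of 7 rose at AS30 22 h, where 3.58% of all probes were called. NLRP1, a sensor, rose by 1.55 ± 0.26 (adjusted p 0.0293) and PYCARD, the adaptor that joins sensors to CASP1, by 0.94 ± 0.18 (adjusted p 0.0422). For NLRP1 the change was 0.85 with normexp, and with no filter on dim spots the adjusted p was 0.417. The NLRP1 probes A_23_P89550 and A_24_P83615 gave no usable ratio at 22 h. GSDME, a pore-forming protein cut by caspases, was the only 1 of 8 substrates called at 22 h, by 0.70 ± 0.12 (adjusted p 0.024). Of the other caspases 0 of 3 were called in any comparison by limma; in SM30 cells and at AS30 22 h 1 of 3 had an unadjusted p below 0.05, in AS30 cells at 3 h 0. CASP5, an inflammatory caspase, changed by 0.96 at AS30 22 h with an adjusted p of 0.0581; it too lies outside the naming rule.

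With slide as a fixed block 0 of the 9 pathway calls that could be fitted held, with adjusted p from 0.0588 to 0.693, while all 9 changes kept their sign. Without 22 h pair A, without 22 h pair C, and without SM30 pair A or B, 0 of the 5 calls at AS30 22 h held, and 2 held without 22 h pair B, without AS30 3 h pair A or without SM30 pair C. Of the 5 calls in SM30 cells 2 held without SM30 pair A, TNF and XIAP, and 1 without SM30 pair B or C, TNF. With 75th percentile scaling 2 of the 5 calls at AS30 22 h held, and with no filter on dim spots 2 held as well. CRADD was called in 9 of 20 alternatives, PYCARD in 9 of 19 and TRADD in 11 of 20. NLRP1 was called in 13 of 19 and GSDME in 15 of 20.

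**Figure D5:**
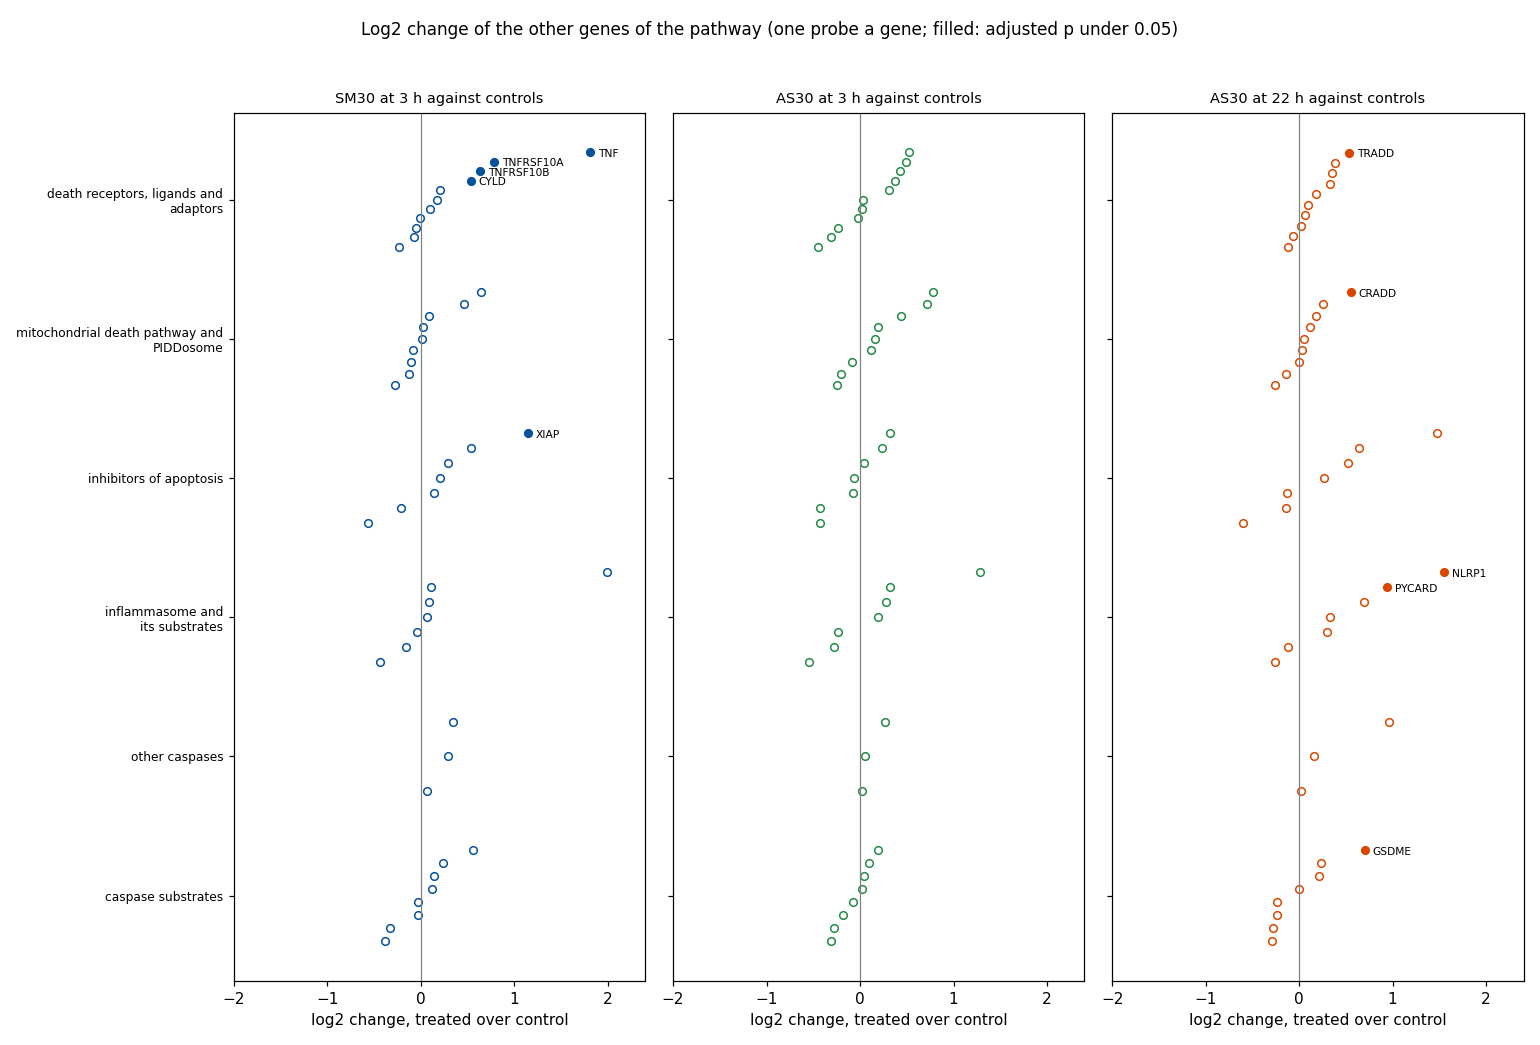
Log2 change (horizontal axis) of the pathway genes that passed the filter, 1 probe a gene, by list in the 3 comparisons, with filled and named points for an adjusted p below 0.05. All 10 filled points lie above 0, with 5 in SM30 cells and 5 in AS30 cells at 22 h.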

How the data were processed

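RNA of 18 A549 samples was hybridised to one-colour Agilent arrays. The authors deposited scanner files made with Agilent Feature Extraction 10.5.1.1, per the submitters' processing notes, whose green processed signal is a background-subtracted spot intensity on a linear scale. Control spots were left out and intensities were quantile-normalized on the log2 scale. Outlier spots and spots not positive and significant were then set missing, spots of 1 probe were averaged, and probes missing on over 33% of arrays were dropped. Log2 ratios of same-letter arrays were fitted with limma 3.58.1 in R 4.3.3, with all 9 pairs sharing 1 estimate of the spread and Benjamini-Hochberg adjustment at 0.05. The pipeline was tested on simulated data. The 3 arrays a group limit the precision.

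The members and lists were chosen with earlier results of these data known. All member probes were named. The brightest probe stood for a gene, and pathway genes were named where called, at most 3 a list and comparison by size of change. The letters come from the labels and are biological replicates by the methods, which do not say that a letter pairs a treated with a control culture: after subtraction of each group's mean, arrays of 1 letter correlated at -0.0914 to 0.476, over 0.1 in 4 of 9 pairs. The authors' deposited table of normalized values served as an alternative, as did other scalings, filters, blocks and left-out pairs.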

Additional observations from a re-analysis of the deposited data

Results flagged for a closer look

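Responses to AS30 that ran in opposite directions at 3 h and 22 h in every pair were found for CASP6 and for both CASP9 probes. How many of all probes did so was not counted. For CASP9 A_24_P111342 the 22 h pair B was only 0.0044, and its 22 h groups overlapped. For CASP6 the 22 h response minus the 3 h response was 0.47, with an adjusted p of 0.197 by limma. For CASP9 it was 0.31 with A_24_P111342, with an adjusted p of 0.346, and 0.35 with A_23_P97309, with an adjusted p of 0.322. The difference itself was tested in each case and did not pass.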

How the results depend on the processing

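The count of member probes called for AS30 at 22 h, 1 as reported, was 0 with no filter on dim spots and 0 with slide as a fixed block, 2 with only probes positive and significant on all 18 arrays, 2 with slide as a random block, and 8 with ratios over the mean of the 3 controls. For SM30 it was 0 as reported, 1 with the well-above-background flag, 1 with slide as a random block and 5 over the mean of controls. For AS30 at 3 h it was 0 as reported and 1, 3 and 5 in the same order. Of all probes, 1.24% were called at AS30 22 h with no filter and 0.0281% with the fixed block. There the share was 4.71% with only probes positive and significant on all 18 arrays, and 6.84% with the random block. With the flag and the random block it was 11.7% and 10.7% for SM30, and 5.03% and 13.8% for AS30 at 3 h. The random block used a correlation within slides of -0.0837, and its 2 calls at AS30 22 h were CASP1 and CFLAR A_24_P120115. With 75th percentile scaling the 1 call at AS30 22 h was also CFLAR A_24_P120115. CFLAR A_23_P209394 was thus not called in either. The difference between particles and that between times each went from 0 to 3 of 17 over the mean of controls, where 19.1% and 21.2% of all probes were called; for AS30 at 22 h, SM30, and AS30 at 3 h that share was 31.4%, 33% and 35%. Without the replicate block, that is without pairing arrays by letter, AS30 at 3 h had 1 call (CASP2) and AS30 at 22 h had 2 (CASP1, against 1 usable control array, and the second CFLAR probe), and CFLAR A_23_P209394 kept its change of 0.67 with an adjusted p of 0.086. In that fit without pairing, 4.59% of all probes were called for AS30 at 3 h and 4.99% for AS30 at 22 h. Leaving out 1 pair at a time gave 0 to 2 calls at AS30 22 h, 0 to 3 at AS30 3 h, the 3 without AS30 3 h pair C, and 0 elsewhere. Without AS30 3 h pair C, 10.7% of all probes were called for AS30 at 3 h. The 2 calls at AS30 22 h came without AS30 3 h pair C or 22 h pair B, where all probes gave 4.84% and 4.29%. The CFLAR call was lost without any 1 of the SM30 pairs, AS30 3 h pair A or any 22 h pair. Over all probes, calls at AS30 22 h went from 1008 to 2 without pair A and 8849 over the mean of controls. No called result changed its direction under an alternative. Ratios over the mean of controls share those controls and so leave out the controls' spread. The cause of the other changes was not tested. CASP1 had too few usable spots at 22 h for a ratio by letter; its calls without letters, with slide as a random block and over the mean of controls rest on 1 usable control array that was not well above background, and with no filter on dim spots the adjusted p was 0.305. Signal over background limits CASP1, CASP2 A_23_P215701, CASP8 A_24_P148499 and CASP10 A_24_P3045.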
